A study of Mus musculus with 6 samples.

Results

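The mitochondrial respiratory chain genes of activated mouse CD8+ T cells were followed after treatment with an inhibitor of LSD1. The set held every gene of the count table whose symbol starts with Nduf, Uqcr or Atp5, or with Cox and a digit from 4 to 8, together with Sdha, Sdhb, Sdhc, Sdhd, Cyc1 and Cycs. These rules gave 97 of the 16281 genes in the table, and 92 of the 97 had enough reads to be tested. LSD1, the product of Kdm1a, is a histone demethylase, and the question was how its inhibition changes transcripts of CD8+ T cells.

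The respiratory chain sits in the inner mitochondrial membrane. Complexes I and II pass electrons from NADH and succinate to ubiquinone, complex III passes them on to cytochrome c, and complex IV passes them to oxygen. Complexes I, III and IV pump protons, and complex V uses the proton gradient to make ATP. Most subunits are encoded in the nucleus, and activated T cells are known to increase their mitochondrial mass as they grow and divide. The subunits encoded by mitochondrial DNA were not analysed here.

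Spleen CD8+ T cells came from OT1 mice, which are C57BL/6 animals with the T cell receptor transgene Tg(TcraTcrb)1100Mjb, specific for an ovalbumin peptide. All samples were activated with 2 μg/ml anti-CD3 and 2 μg/ml anti-CD28 for 48 h and were then expanded with 20 ng/ml IL-2 for 3 days. The 3 GSK samples received 0.5 μM of the LSD1 inhibitor GSK2879552 throughout the culture, and the 3 Veh samples received vehicle. The study took cells from 3 separate mice and gives 3 mice per group, so each mouse may have supplied a Veh and a GSK sample. The mice carry a transgenic receptor, and the drug was given in culture, so the samples describe cultured transgenic cells rather than a natural T cell population.

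The libraries held 18288447 to 18918811 counts in Veh and 19149909 to 19846720 in GSK. Levels are given as CPM, a gene's counts scaled to a common library size, with library sizes adjusted by the trimmed mean of M values. The labelled cell type was borne out by its markers: Cd3e, Cd3d, Cd8a and Cd8b1 summed to between 1529 and 1603 CPM in Veh and between 1437 and 1530 in GSK, with 2 of the 4 lower in GSK (Cd3e and Cd3d), while Trac was not analysed here. The markers of other cells were scarce in every library. B cell markers summed to 5.78 to 7.94 CPM in Veh and 5.53 to 6.53 in GSK, myeloid markers to 2.79 to 4.68 and 1.30 to 2.73, and NK cell markers to 1.58 to 2.36 and 2.38 to 3.78. Those of CD4 T cells summed to 3.78 to 5.69 and 4.81 to 6.98, and erythroid markers reached at most 0.365. None of the 4 B cell, myeloid and NK cell markers with enough reads for the test passed it in edgeR or DESeq2 (Cd79b and Itgam had an unadjusted p under 0.05), erythroid markers had too few, and 1 of 3 CD4 T cell markers passed (Cd40lg, higher in GSK). The part of these differences in the results was not tested. Kdm1a itself was at 92.8 ± 5.45 CPM (SD, n = 3) in Veh and 87.1 ± 3.54 in GSK, with overlapping groups (adjusted p = 0.22, edgeR's quasi-likelihood test), which checks no label because the drug acts on the protein.

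Promoter sequence is shown first for 4 members on which the results turn. Of the 97 members, 77 had an entry in the RefSeq promoter table for GRCm38.p6, which spans 250 bases before to 50 bases after each start site. The 130 bases just before the start site are printed 5′ to 3′ in the direction of transcription, for the member with the clearest rise in an assembly factor (Ndufaf4), for cytochrome c (Cycs), for a gene of the ATP synthase c ring (Atp5g3) and for the member with the clearest fall (Ndufv3). Capitals mark a match, on either strand, to CGCATGCG, a word bound by nuclear respiratory factor 1, or to CAAGGTCA, a word bound by estrogen-related receptors. The Atp5g3 start is that of its coding transcripts in GENCODE and lies inside the RefSeq gene region, which extends further upstream to 73912464.
Ndufaf4, chr4:24897953-24898082, plus strand: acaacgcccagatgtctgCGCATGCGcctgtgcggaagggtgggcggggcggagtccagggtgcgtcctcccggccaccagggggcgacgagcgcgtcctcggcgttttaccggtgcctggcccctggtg
Cycs, chr6:50566570-50566699, minus strand: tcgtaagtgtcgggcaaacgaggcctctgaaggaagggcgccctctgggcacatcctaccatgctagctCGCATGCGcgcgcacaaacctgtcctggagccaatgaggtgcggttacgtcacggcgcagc
Atp5g3, chr2:73911327-73911456, minus strand: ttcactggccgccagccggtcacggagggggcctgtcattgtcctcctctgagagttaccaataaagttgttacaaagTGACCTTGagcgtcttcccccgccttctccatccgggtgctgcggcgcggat
Ndufv3, chr17:31519985-31520114, plus strand: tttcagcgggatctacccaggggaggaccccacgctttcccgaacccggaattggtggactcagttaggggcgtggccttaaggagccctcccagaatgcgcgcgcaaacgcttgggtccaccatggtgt

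The word of nuclear respiratory factor 1, a transcription factor named for its role in this gene set, was found in the promoter windows of 12 of 76 tested members with an entry (15.8%), of 4.49% of all tested genes and of 2.07% of all genes in the promoter table. CCGGAAG, a word of the ETS family to which GABP belongs, was found for 19 of the 76 (25%), against 21.2% and 9.93%. The estrogen-related receptor word was found for 4 (5.26%), against 1.26% and 1.76%. A gene with several start sites was counted once, and the 3 words do not overlap one another. Among members that passed the test as higher in GSK, 4 of 20 held the first word, and among those that did not pass, 8 of 54 did. As the printed windows show, that word lay before Ndufaf4 and Cycs, which rose, and it was also found for Atp5g2, which did not pass. A match is only a match of letters.

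Most respiratory chain genes did not pass the test, and most of those that did were higher in GSK by a small amount. Of the 92 tested members, 22 were higher in GSK at an adjusted p under 0.05 (edgeR's quasi-likelihood test, adjusted by Benjamini-Hochberg over 11698 genes), or 23.9%, beside 16.6% of all tested genes. Only 2 of the 92, Ndufv3 and Cox7a2l, were lower, beside 15.5% of all tested genes, and 68 did not pass. The estimate was above 0 for 87 members and below 0 for 5, whereas over all tested genes 5770 of 11698 were above 0. The median log2 fold change of the members was 0.10, which is 1.07-fold, with quartiles of 0.047 and 0.18, beside a median of -0.0039 and quartiles of -0.18 and 0.15 over all genes. The plot of fold changes by complex shows this spread.

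**Figure D1:**
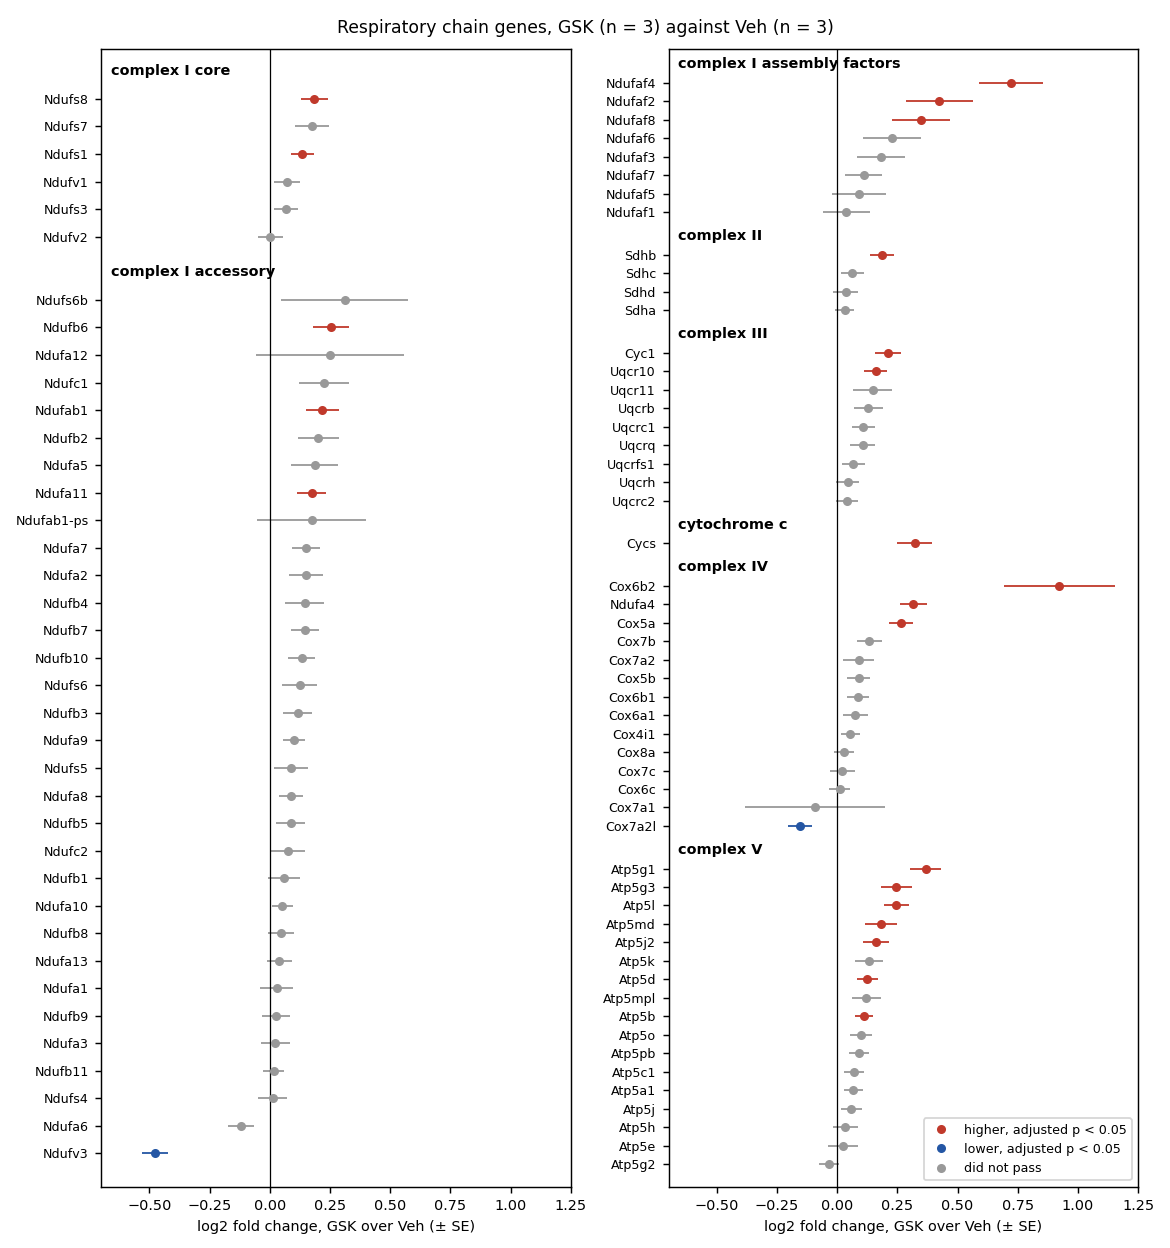
Log2 fold change of GSK over Veh (horizontal axis, with its standard error) for 91 of the 92 tested members, grouped by complex. Red points passed the test as higher and blue points as lower. Nearly all points lie just to the right of 0, while Ndufv3 stands apart on the left at -0.48 and Cox6b2 and Ndufaf4 on the right at 0.92 and 0.72.

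A change past 1.5-fold as well as the adjusted p was seen for 2 members, Ndufaf4 and Cox6b2, both higher, beside 2.22% of all tested genes. No member passed both limits downwards in edgeR or DESeq2, beside 4.09% of all genes in edgeR, and the lowest estimate was -0.48. At an unadjusted p under 0.05, 32 members were higher and 3 were lower in edgeR (Ndufv3, Cox7a2l and Ndufa6). The share of all tested genes at this limit is not given, so these counts cannot be read as high or low. No member of the complex I core, the complex I assembly factors, complex II, complex III or complex V was lower at that limit. This too has no share of all genes beside it. DESeq2 called no member of these groups lower at the adjusted p, beside 1521 of 16281 genes. All 3 GSK samples lay above all 3 Veh samples for 36 members, beside 23.7% of all tested genes, and below them for 3 members, beside 23.0%. Because these are pooled cells, fewer cells with a transcript and less of it per cell cannot be told apart.

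Relative to the Veh mean, the median member stood at -0.029, 0.018 and 0.016 on the log2 scale in Veh 1, 2 and 3, and at 0.098, 0.041 and 0.16 in GSK 1, 2 and 3. The 3 GSK medians were all above the 3 Veh medians, with GSK 2 nearest to Veh and GSK 3 farthest from it. In GSK 1, 2 and 3, 80, 64 and 86 of the 92 members were above the Veh mean, and in Veh 1, 2 and 3, 26, 58 and 56 were. The members took 1.00%, 1.04% and 1.03% of all counts in Veh 1, 2 and 3, and 1.08%, 1.04% and 1.11% in GSK 1, 2 and 3, so that GSK 2 lay close to Veh 2 and Veh 3 on this measure. How many members passed depended on single libraries. The count of 22 higher members became 9 without Veh 1 (9.68% of the members tested then, beside 11.6% of all genes) or without GSK 1 (9.68% beside 10.9%). It became 11 without Veh 3 (12% beside 11.9%) or without GSK 3 (11.8% beside 12.3%), 18 without Veh 2 (19.6% beside 14.0%) and 33 without GSK 2 (35.5% beside 17.6%). The share of higher members was thus at or near that of all genes in 4 of the 6 cases and above it with all 6 samples and in the other 2 cases.

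**Figure D2:**
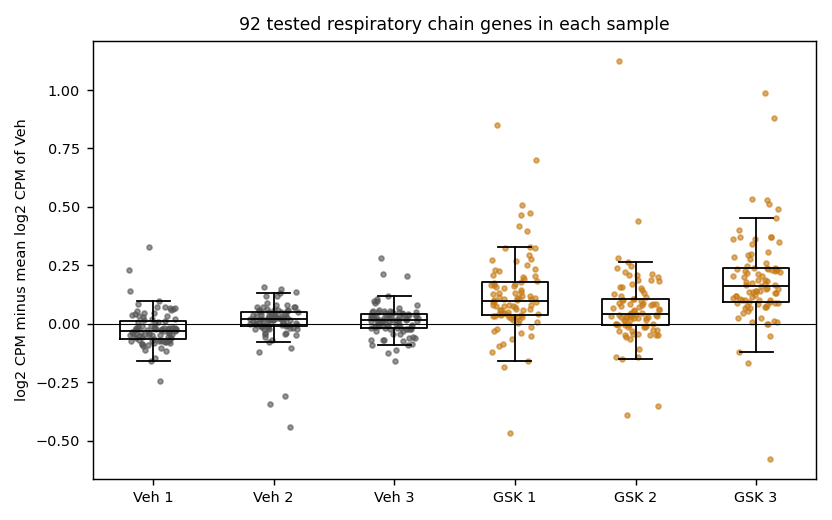
Log2 CPM of each of the 92 tested members minus its mean log2 CPM in Veh (vertical axis), in each sample. Boxes show the median and quartiles, whiskers reach at most 1.5 times the quartile range, and dots are genes. The medians given in the text, 0.098, 0.041 and 0.16 in GSK, lie above those of Veh. They use log2 of the mean CPM in Veh as the reference, so they can differ slightly from the boxes.

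The members are short genes: their median transcript length was 781 bases, against 2867 bases over all tested genes. When each library was corrected for transcript length before the test, 13 members were higher and 3 were lower, and the median log2 fold change was 0.062. The 13 were 14.1% of the members, below the 16.8% of all genes called higher with that correction, so the larger share of higher members did not hold. Beside the 3 lower members, 1796 of 11698 genes were called lower with that correction. The calls of Atp5d, Atp5j2, Atp5md, Ndufa11, Ndufaf2, Ndufaf8, Ndufb6, Ndufs8 and Uqcr10 were lost (adjusted p from 0.052 to 0.20), and the log2 fold changes of Atp5md, Ndufa11 and Uqcr10 became 0.10, 0.11 and 0.086. Both Ndufaf4 and Cox6b2 stayed past 1.5-fold with that correction.

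Complex I takes electrons from NADH through 7 nuclear-encoded core subunits, which carry the flavin and the iron-sulfur clusters. Of these, 2 were higher in GSK (28.6%, beside 16.6% of all tested genes) and none was lower, beside 15.5%. Their median log2 fold change was 0.072. Ndufs8, an iron-sulfur subunit of the arm that reaches ubiquinone, was at 54.2, 56.1 and 54.1 CPM in Veh and 63.2, 59.0 and 64.7 CPM in GSK. The groups did not overlap, and the log2 fold change was 0.18 ± 0.056 (SE, adjusted p = 0.023). Ndufs1, the largest iron-sulfur subunit, was at 103, 108 and 108 CPM in Veh and 119, 113 and 119 CPM in GSK, a log2 fold change of 0.14 ± 0.046 (adjusted p = 0.039). The Ndufs8 call was lost without Veh 1, Veh 3, GSK 1 or GSK 3, and the Ndufs1 call held only without GSK 2 (adjusted p up to 0.15 in the others). The other core genes did not pass. Ndufs7, which holds the last iron-sulfur cluster before ubiquinone, had a log2 fold change of 0.18 (adjusted p = 0.069), and Ndufv1, which binds the flavin and NADH, one of 0.072 (adjusted p = 0.32). For Ndufv2 the log2 fold change was 0.0028.

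The accessory subunits surround this core. Of 32 tested, 3 were higher (9.38%) and 1 was lower, beside 16.6% and 15.5% of all tested genes. Their median log2 fold change was 0.11. In 20 of the 32 the groups overlapped, beside 6234 of 11698 tested genes. The 32 include Ndufab1-ps, a pseudogene by its symbol, and Ndufs6b, at 2.88 and 1.89 CPM in Veh. Of their 31-base stretches, 84.0% and 45.3% also occur in other transcripts, and neither gene passed. Ndufv3, a small accessory subunit of the NADH-binding module, was the member with the smallest adjusted p. It was at 108, 106 and 112.5 CPM in Veh and at 78.7, 83.0 and 72.8 CPM in GSK. Every GSK sample lay far below every Veh sample, and the log2 fold change was -0.48 ± 0.055 (adjusted p = 6.4e-05). The GSK mean was 71.9% of the Veh mean. The gene lies on chromosome 17 from 31520115 to 31531326 (GRCm38), and its exons overlap no other gene. Set against Ndufv1, its neighbour in the same module, Ndufv3 counts were 131%, 124% and 132% of Ndufv1 counts in Veh and 88.5%, 99.2% and 77.7% in GSK.

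The 3 accessory genes that rose did so by less. Ndufb6, a subunit of the membrane arm, was at 33.1, 37.3 and 30.9 CPM in Veh and 40.6, 39.8 and 40.4 CPM in GSK, without overlap (log2 fold change 0.25 ± 0.074, adjusted p = 0.020). Ndufab1, the mitochondrial acyl carrier protein, which also serves mitochondrial fatty acid synthesis, was at 39.1, 47.4 and 43.7 CPM in Veh and 50.8, 50.1 and 50.6 CPM in GSK (0.22 ± 0.070, adjusted p = 0.030). Ndufa11, another membrane arm subunit, had a log2 fold change of 0.18 ± 0.060 (adjusted p = 0.040). Of these, Ndufb6 was lost without Veh 1, Veh 3 or GSK 1, Ndufab1 without Veh 1, Veh 3, GSK 1 or GSK 3, and Ndufa11 without any 1 sample except Veh 2 (adjusted p up to 0.14). Ndufb7, of the same arm, was at 76.1 ± 3.99 CPM in Veh against 84.1 ± 4.92 CPM in GSK and did not pass (adjusted p = 0.075). Ndufa6 was lower in all 3 GSK samples than in any Veh sample, at 53.2 ± 1.498 and 49.0 ± 1.11 CPM, and did not pass (adjusted p = 0.11). With the correction for transcript length it passed as lower.

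Ndufa12, named here after its values were seen, was the tested member with the largest spread relative to its mean in GSK. It was at 55.9, 40.0 and 58.5 CPM in Veh 1, 2 and 3 and at 70.6, 39.8 and 73.4 CPM in GSK 1, 2 and 3. The second replicate was low in both groups, at 69.9% of the mean of the other two in Veh and 55.3% in GSK. The log2 fold change, 0.25 ± 0.31, had the largest standard error of all tested members (adjusted p = 0.59).

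Assembly factors of complex I bind its subcomplexes and leave the finished enzyme. All 8 were tested, 3 were higher (37.5%, beside 16.6% of all tested genes) and none was lower, beside 15.5%. Their median log2 fold change was 0.20. Ndufaf4, which acts early in building the ubiquinone arm, was at 14.4, 15.2 and 12.6 CPM in Veh and at 22.8, 19.0 and 27.8 CPM in GSK. The groups did not overlap, and the rise was 1.65-fold (log2 fold change 0.72 ± 0.13, adjusted p = 0.0021). GSK 3 was the highest of the 3 GSK samples, and without it the log2 fold change was 0.57 and no longer past 1.5-fold. Ndufaf2, which joins late as the NADH-binding module is added, was at 6.26, 8.15 and 7.99 CPM in Veh and 10.6, 8.81 and 10.7 CPM in GSK (0.42 ± 0.14, adjusted p = 0.034). Ndufaf8, a partner of Ndufaf5, was at 7.13, 7.83 and 7.67 CPM in Veh and 10.1, 9.06 and 9.70 CPM in GSK (0.35 ± 0.12, adjusted p = 0.040). The call of Ndufaf4 held without any single sample, that of Ndufaf2 was lost without Veh 1, Veh 3, GSK 1 or GSK 3, and that of Ndufaf8 held only without GSK 2 (adjusted p up to 0.14). Ndufaf5 itself did not pass, at 10.5 ± 0.498 and 11.1 ± 0.939 CPM. Ndufaf6, Ndufaf7, which methylates a core subunit, and the remaining factors did not pass either, with log2 fold changes from 0.038 to 0.23.

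Complex II, succinate dehydrogenase, is also an enzyme of the citric acid cycle. Of its 4 genes only Sdhb, the iron-sulfur subunit, passed. Sdhb was at 130, 143 and 139 CPM in Veh and 154, 153 and 162 CPM in GSK, without overlap (log2 fold change 0.19 ± 0.048, adjusted p = 0.011). The call was lost without Veh 1 (adjusted p = 0.058) and held without any other single sample. The flavoprotein gene Sdha was at 299 ± 5.89 CPM in Veh against 306 ± 7.39 CPM in GSK, and the membrane anchors Sdhc and Sdhd were as close, at 86.3 ± 3.33 and 90.1 ± 1.78 CPM and at 138 ± 5.75 and 141 ± 7.60 CPM. Whether Sdhb differs from its partners in its response was not tested.

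Complex III passes electrons from ubiquinol to cytochrome c. Of its 9 genes 2 were higher (22.2%, beside 16.6% of all tested genes) and none was lower, beside 15.5%. The median log2 fold change was 0.11. Cyc1, which encodes cytochrome c1, the heme protein that hands electrons to cytochrome c, was at 113, 113 and 106 CPM in Veh and 128, 121 and 136 CPM in GSK (0.21 ± 0.053, adjusted p = 0.0088). The groups did not overlap. Uqcr10, a small subunit of the complex, was at 71.7, 72.4 and 69.7 CPM in Veh and 80.0, 78.1 and 80.9 CPM in GSK (0.16 ± 0.048, adjusted p = 0.022). Cyc1 passed without any single sample, whereas Uqcr10 did not pass without Veh 1, Veh 3, GSK 1 or GSK 3 (adjusted p from 0.058 to 0.082), in DESeq2 (adjusted p = 0.052) or with the length correction (0.086, adjusted p = 0.20). The core protein gene Uqcrc1 had non-overlapping groups, at 182 ± 4.92 and 196 ± 10.9 CPM, and did not pass (adjusted p = 0.11). Uqcrb (0.13, adjusted p = 0.12) and the hinge protein gene Uqcrh (0.044, adjusted p = 0.52) did not pass, and with the length correction the Uqcrh estimate was -0.021.

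Cycs, cytochrome c, carries electrons between complexes III and IV and triggers the apoptosome when released to the cytosol. It was at 67.5, 80.0 and 68.2 CPM in Veh and at 94.5, 82.9 and 92.3 CPM in GSK. The lowest GSK sample was just above the highest Veh sample, and the log2 fold change was 0.32 ± 0.072 (adjusted p = 0.0054). Of the 31-base stretches of its transcript, 31.8% also occur in other annotated transcripts, so reads could be split or lost there.

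Complex IV, cytochrome c oxidase, reduces oxygen to water. Of 14 tested genes 3 were higher (21.4%, beside 16.6% of all tested genes) and 1 was lower, beside 15.5%. The median log2 fold change was 0.081. Ndufa4, a subunit of complex IV despite its name, was at 76.3, 81.1 and 83.1 CPM in Veh and 101, 93.4 and 106 CPM in GSK. The groups lay well apart (0.32 ± 0.057, adjusted p = 0.0012). Cox5a, a subunit on the matrix side, was at 128, 135 and 130 CPM in Veh and 159, 147 and 166 CPM in GSK, again without overlap (0.26 ± 0.051, adjusted p = 0.0019). Cox7a2l, linked to supercomplexes of complexes III and IV, was at 156, 141 and 149 CPM in Veh and 131, 138 and 132 CPM in GSK (-0.15 ± 0.049, adjusted p = 0.028). Whether its product joins them in cells of this strain was not tested. The highest GSK sample of Cox7a2l was just below the lowest Veh sample, 23.3% of its stretches are shared with other transcripts, and the call was lost without Veh 1, Veh 3, GSK 1 or GSK 3 (adjusted p from 0.055 to 0.13). The calls of Ndufa4, Cox5a and Cox6b2 held without any single sample.

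Several complex IV subunits come as isoforms from separate genes. Cox6b2, the isoform known from testis, was at 2.39, 1.502 and 2.37 CPM in Veh and 3.68, 4.45 and 3.75 CPM in GSK. It rose 1.90-fold (log2 fold change 0.92 ± 0.23, adjusted p = 0.0089). Its common counterpart Cox6b1 was at 175 ± 5.26 and 186 ± 6.16 CPM and did not pass, so Cox6b2 counts were 0.846% to 1.41% of Cox6b1 counts in Veh and 1.95% to 2.42% in GSK. The muscle isoform Cox7a1 was at 1.23 ± 0.0729 and 1.16 ± 0.0830 CPM, and the common Cox7a2 at 78.9 ± 4.46 and 84.0 ± 6.87 CPM. Neither passed. Cox4i1, Cox6a1 and Cox8a, the common forms of their subunits, did not pass either, with log2 fold changes of 0.055, 0.075 and 0.028.

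The 5 members that were not tested had few reads in every sample. Cox6a2, a muscle isoform, was at 0.381, 0.644 and 0.841 CPM in Veh and 0.368, 0.253 and 0.209 CPM in GSK. Ndufb4b was between 0.105 and 0.365 CPM. Cox4i2, Ndufb4c and Ndufa4l2, a paralogue of Ndufa4 known to respond to low oxygen, had at most 2 counts in any sample, and differences in them were not detectable at this depth.

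Complex V, ATP synthase, had the most calls. Of its 17 genes, 7 were higher (41.2%, beside 16.6% of all tested genes) and none was lower, beside 15.5%. The median log2 fold change was 0.11. In DESeq2, 5 of the 17 were higher, beside 10.3% of all 16281 genes, which include genes with few reads. With the length correction in edgeR the calls of Atp5d, Atp5j2 and Atp5md were lost (adjusted p = 0.12, 0.096 and 0.19). Those of Atp5b, Atp5g1, Atp5g3 and Atp5l stayed, beside 16.8% of all genes called higher with that correction. In the part that makes ATP, Atp5b, the catalytic beta subunit, was at 1216, 1298 and 1271 CPM in Veh and 1377, 1296 and 1417 CPM in GSK (0.11 ± 0.039, adjusted p = 0.041). Its groups touched, since GSK 2 lay within the Veh range. Atp5d, of the central stalk, was at 219, 222 and 234 CPM in Veh and 248.7, 242 and 247 CPM in GSK (0.13 ± 0.042, adjusted p = 0.036). Both calls were lost without Veh 1, GSK 1 or GSK 3, that of Atp5b also without Veh 3 and that of Atp5d also without Veh 2 (adjusted p from 0.074 to 0.17). None of the 4 genes of the peripheral stalk (Atp5pb, Atp5h, Atp5j and Atp5o) passed in edgeR or DESeq2, and 1 had an unadjusted p under 0.05 in edgeR, with log2 fold changes from 0.034 to 0.099. Among 5 genes of small membrane subunits, Atp5l, Atp5j2 and Atp5md were higher. Atp5j2 (0.16, adjusted p = 0.039) and Atp5md (0.18, adjusted p = 0.049) had overlapping groups and lost their calls without Veh 1, Veh 3, GSK 1 or GSK 3, and Atp5md also without Veh 2. Atp5l was at 137, 130 and 126 CPM in Veh and 164, 149 and 153 CPM in GSK (0.25 ± 0.051, adjusted p = 0.0028), and 69.7% of its stretches are shared with other transcripts.

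The c ring, which turns as protons pass, is built from a mature peptide that 3 genes encode alike. Atp5g1 was at 55.6, 60.5 and 56.6 CPM in Veh and 72.1, 69.9 and 80.8 CPM in GSK (0.37 ± 0.064, adjusted p = 0.00095). Atp5g3 was at 166, 187 and 185 CPM in Veh and 215, 194 and 228 CPM in GSK (0.25 ± 0.064, adjusted p = 0.012). For both genes every GSK sample was above every Veh sample, and the Atp5g3 call was lost without GSK 1 (adjusted p = 0.056). Atp5g2 was at 186, 185 and 191 CPM in Veh and 179, 183 and 187 CPM in GSK, with overlapping groups (-0.033 ± 0.042, adjusted p = 0.58). Counts of Atp5g1 were 29.6% to 32.7% of those of Atp5g2 in Veh and 38.1% to 43.2% in GSK, and counts of Atp5g3 were 89.5% to 101% and 106% to 122%. Atp5g1 and Atp5g2 share 67.3% and 87.7% of their stretches with other transcripts, while Atp5g3 shares none.

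**Figure D3:**
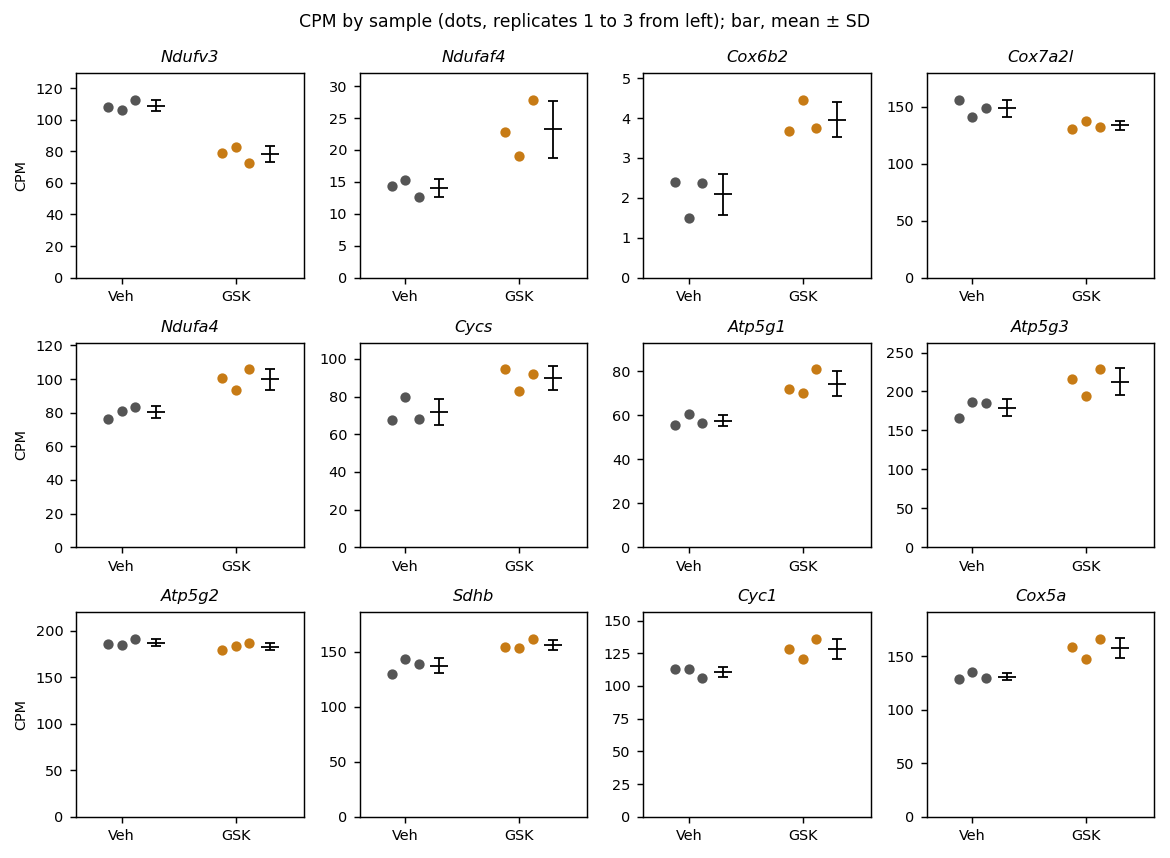
CPM (vertical axis, starting at 0) of 12 members in the 3 Veh and the 3 GSK samples. Dots are samples and the bar beside them is the mean with its SD. Ndufv3 and Cox7a2l are lower in GSK, Atp5g2 overlaps, and the other 9 are higher, from 1.502 to 2.39 CPM up to 3.68 to 4.45 CPM for Cox6b2.

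Near-identical copies and overlapping genes bear on how the reads of these genes were assigned. Of the 91 tested members with an annotated transcript, 51 shared under 5% of their 31-base stretches with other transcripts. Of these, 13 were higher (25.5%, beside 16.6% of all tested genes) and 1 was lower, with a median log2 fold change of 0.089. Of the 40 that shared more, 9 were higher (22.5%) and 1 was lower, with a median of 0.13. Among the 61 members whose exons overlap no other gene, 13 were higher (21.3%) and 2 were lower, with a median of 0.11. Exons of 5 members overlap another gene on the same strand and those of 26 on the other strand only. For Sdhb, Ndufs8, Ndufv3, Cox6b2 and Atp5g3 no stretch was shared and no exon overlapped.

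Per length, as CPM divided by kilobases of transcript (RPKM), the complexes were unequal in level. Atp5b was the highest member, at a mean of 659 RPKM in Veh and 712 RPKM in GSK, and Cox4i1 followed at 423 and 439. Among complex I core genes, Ndufs1 was at 42.0 RPKM and Ndufs3 at 64.7 (means over all samples). The complex I assembly factors lay between 5.13 RPKM for Ndufaf4 and 13.4 for Ndufaf7. On this scale Cycs was at 23.0 RPKM in Veh and 28.8 in GSK, and Cyc1 at 72.9 and 84.3.

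Neighbouring gene groups of the mitochondrion were read in the same fit. One list held 36 tested assembly factors of the other complexes and further factors of complex I. Of these, 6 were higher (16.7%, beside 16.6% of all tested genes) and 1 was lower, with a median log2 fold change of 0.085. Foxred1 (0.25, adjusted p = 0.013) and Ecsit (0.28, adjusted p = 0.014), both of complex I, were higher, as were Cox10, which makes heme for complex IV (0.25, adjusted p = 0.016), and Uqcc1 of complex III (0.26, adjusted p = 0.017). Tmem126b, a complex I assembly factor, was the one that was lower (-0.34, adjusted p = 0.032).

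Among 20 tested regulators of the respiratory chain genes, 2 were higher (10%) and 3 were lower, beside 16.6% and 15.5% of all tested genes. The median log2 fold change was -0.014. Pprc1, a coactivator of the PGC-1 family, was at 76.2 ± 7.14 CPM in Veh against 109 ± 12.2 CPM in GSK (0.52, adjusted p = 0.0029). Lrpprc, which stabilises mitochondrial messages, was also higher (0.28, adjusted p = 0.00094). Higd1a, a factor that binds complexes III and IV (-0.26, adjusted p = 0.00098), the matrix protease Lonp1 (-0.29, adjusted p = 0.0010) and Gabpa, which encodes the DNA-binding subunit of GABP (-0.17, adjusted p = 0.015), were lower. Nrf1, which encodes nuclear respiratory factor 1, was at 67.6 ± 2.53 and 67.4 ± 3.29 CPM and did not pass.

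The citric acid cycle feeds electrons into the chain. Of its 14 tested enzymes, 7 were higher (50%, beside 16.6% of all tested genes) and none was lower, beside 15.5%. DESeq2 also called 7 higher, beside 10.3% of all 16281 genes. The median log2 fold change was 0.11. Dlst, a subunit of the oxoglutarate dehydrogenase complex, was at 150 ± 3.25 CPM in Veh against 202 ± 7.37 CPM in GSK (0.43, adjusted p = 2.8e-05). Idh3a (0.30) and Mdh2 (0.19) were also higher. The mitochondrial ribosome translates the subunits encoded in the organelle. Of its 78 genes, 28 were higher (35.9%, beside 16.6% of all tested genes) and none was lower, beside 15.5%. The median was 0.16. In DESeq2, 20 of the 78 were higher, beside 10.3% of all 16281 genes, a share that includes genes with few reads. For these lists, results with the length correction or with samples left out are not given. Mrpl16, Mrpl41, Mrpl12 and Mrpl17 had log2 fold changes of 0.38, 0.36, 0.35 and 0.31. The plot of group medians places the respiratory chain beside these lists.

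**Figure D4:**
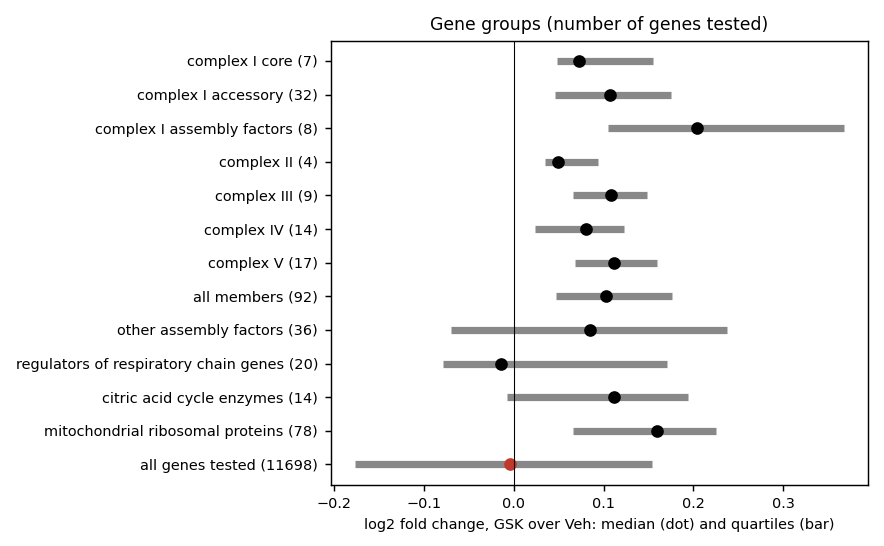
Median log2 fold change of GSK over Veh (dot) and quartiles (bar) for the complexes and for other mitochondrial gene lists, with the number of genes tested in parentheses. The medians of all complexes lie between 0.049 (complex II) and 0.11, those of the complex I assembly factors and the mitochondrial ribosome are at 0.20 and 0.16, and the median of all 11698 tested genes is at -0.0039.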

How the data were processed

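RNA of 6 samples was sequenced after poly(A) enrichment. Per the labels and the study's methods, the authors trimmed reads with Trimmomatic, mapped them to GRCm38 with HISAT2 2.1.0 and counted reads per gene with HTSeq 0.11.2; the deposited values are raw gene counts, not normalized. The strand setting and annotation of the counting are not given in the sources used here. The counts of 16281 genes were filtered by expression (11698 kept), scaled by the trimmed mean of M values and tested with edgeR 4.0.16 (R 4.3.3) by its quasi-likelihood test, GSK against Veh, 3 samples each, with Benjamini-Hochberg adjustment over all tested genes. Calls used an adjusted p under 0.05, with or without a 1.5-fold change. P-values measure the spread between these samples. The method was tested on simulated data. A limit was set there for the recovery of large changes, but none for changes as small as most of those here. Transcript lengths and shared 31-base stretches came from GENCODE, with 1 representative transcript a gene; gene positions and promoters came from RefSeq. No pair of replicates agreed within sampling noise. Genes named are those with the smallest p-values within each complex or list, with isoform pairs. Ndufa12, Ndufa6, Ndufaf5, Ndufs3, Ndufv2, Ndufab1-ps, Ndufs6b, Ndufb4b and Ndufb4c were added after their values were seen. So were Atp5h, Atp5j, Atp5j2, Atp5md, Atp5o, Atp5pb, Gabpa, Nrf1 and Tmem126b. Of 2 genes that enter the counts, single values are not reported here. The members and lists were chosen with earlier results of these data known. Alternatives were DESeq2 1.42.0, other scalings and filters, a replicate block, corrections for transcript length and GC content, and leaving out each sample. With 3 samples against 3, an exact permutation test cannot go below p = 0.1, so none is given for single genes.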

Additional observations from a re-analysis of the deposited data

How the results depend on the processing

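The median log2 fold change of the members stayed above 0 under every alternative, from 0.062 with the length correction to 0.13 without GSK 2. The count of members higher in GSK (22) (23.9% of members, beside 16.6% of all genes) fell to 13 with the length correction (14.1% beside 16.8%), in which all 13 were among the 22, and lay between 9 and 33 when 1 sample was left out, where fewer samples were tested (9.68% to 35.5% of members, beside 10.9% to 17.6% of all genes). Other settings gave 15 (DESeq2, 15.5% beside 10.3%; Atp5b, Atp5md, Ndufa11, Ndufaf2, Ndufaf8, Ndufs1 and Uqcr10 were lost), 21 (relative log expression size factors, no filter, or at least 1 CPM in 3 samples), 16 (total counts, 17.4% beside 14.8%) and 22 (GC correction, chosen after seeing the data, sharing 20). The count of lower members was between 1 and 2 when 1 sample was left out, beside 1281 to 2013 of all genes in those fits. The count past 1.5-fold was between 1 and 2, for which no share of all genes is given. Ndufv3, Ndufaf4, Cox6b2, Ndufa4, Cox5a, Cycs, Cyc1, Atp5g1 and Atp5l passed the adjusted p in every fit run. The estimate of Cox8a was -0.036 and that of Uqcrh -0.021 with the length correction, and that of Sdhd was -0.010 without GSK 3 (up to 0.066 without another sample); none of these passed. The cause of the shift with length was not tested. Replicate numbers are shared between groups, and the study names 3 mice, but no source used here says that a number marks the same mouse in both groups, and over all genes same-numbered samples correlated at -0.052, -0.081 and 0.16, so they were not taken as pairs. With a replicate block 15 members were higher (16.3%, beside 14.6% of all genes) and 1 was lower; Atp5b, Atp5d, Atp5j2, Atp5md, Cox7a2l, Ndufa11, Ndufaf2, Ndufaf8 and Ndufs1 lost their calls (adjusted p from 0.056 to 0.081), and Ndufa12 gained one. Among the members, each sample correlated best with its own number (0.20, 0.14 and 0.13), which is a hint from the data and not from the design.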
